A study of Mus musculus with 6 samples.

Results

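Nuclear receptors are transcription factors that carry a DNA-binding and a ligand-binding domain, and many of them change the transcription of their targets when they bind a small lipophilic ligand such as calcitriol, retinoic acid, thyroid hormone, a glucocorticoid or an oxysterol. Several of them, the vitamin D receptor among them, bind DNA as a heterodimer with a retinoid X receptor (RXR), steroid receptors usually act as homodimers, and the NR4A receptors are orphan receptors whose genes are known as immediate early targets of parathyroid hormone (PTH) and cAMP in osteoblasts. The genes described here are 36 nuclear receptor genes taken by symbol from the gene tables of the series, of 23700 entries in all. They were chosen by name as members of the family, not by their values, and each symbol was found once.

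The libraries came from IDG-SW3 cells, a mouse line made from long bones of animals that carry a Dmp1-GFP reporter and immortalized with an interferon-gamma-inducible, temperature-sensitive T antigen, so that both groups share these transgenes and represent 1 line. On day 28 of differentiation without interferon-gamma, in medium with β-glycerophosphate (4 mM) and ascorbic acid (50 µg/ml), cells received either PBS (Control, 3 libraries) or bovine PTH(1-34) at 50 nM (PTH, 3 libraries) for 24 h. PTH acts on osteocytes through a receptor that raises cAMP, and the comparison asks which transcripts differ after a day of it. Expression is given as FPKM, the number of fragments per kilobase of a gene's transcript relative to the sequencing depth. The fold comparison is the difference of mean log2(FPKM + 1), tested with limma over the 11900 entries whose mean over the 6 libraries was at least 1 FPKM, with p-values adjusted by Benjamini-Hochberg over all of them. An entry below 0.05 after adjustment is called.

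Libraries of a group correlated at r of 0.985 to 0.988 across genes and libraries of different groups at 0.959 to 0.963, genes not being independent replicates. The fragments implied by the deposited bounds came to 13958213 to 19043743 in the Control and 22479950 to 24481480 in the PTH libraries, so every PTH library was the deeper. Dmp1 and Mepe, matrix proteins of osteocytes, stood at a mean of 827 and 208 FPKM in Control and 3.64 and 1.61 FPKM with PTH, Phex at 60.4 and 7.51 FPKM, and Sost, the gene of the Wnt inhibitor sclerostin, at 53.3 and 0.0941 FPKM, so these 4 osteocyte markers were high in the Control libraries alone. Pdpn, an earlier osteocyte marker, was higher with PTH (18.1 to 21.1 FPKM in Control and 152 to 168 FPKM with PTH) and Fgf23 was at or near 0 in both groups. The median change over all tested entries was 0.15 on the log2(FPKM + 1) scale, and the changes of Rxra, Nr1h2, Rora, Nr2c2 and Esrra, which are small, are also given relative to it. Fewer cells of a type and less RNA per cell cannot be told apart in these bulk libraries.

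Of the 36 receptor genes 20 passed the filter and 16 did not. Of the 20 tested, 9 were called higher with PTH (45%), 7 were called lower (35%) and 4 were not called, beside 50.3% and 23.5% of all tested entries called higher and lower. The groups did not overlap for 17 of the 20 (85%), beside 78.3% of all tested entries. Only Vdr was both called and at least 2-fold changed on the log2(FPKM + 1) scale (5%), beside 9.24% of all tested entries. That scale shrinks the changes of low genes. In the ratio of means Thrb (Control 2.43 times PTH) and Esr1 (2.18 times), both called lower, were past 2-fold as well. This ratio was not counted over all entries. The median change of the tested receptors was 0.01, beside 0.15 for all tested entries. Under the 3 other scalings (TPM, median-of-ratios and quantile) the calls were 7 or 8 higher and 8 or 9 lower. Over all 11900 tested entries the same scalings called 4470 to 5154 higher and 3212 to 3755 lower. The main comparison called 5988 higher and 2791 lower, so the calls of all entries moved the same way.

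**Figure D1:**
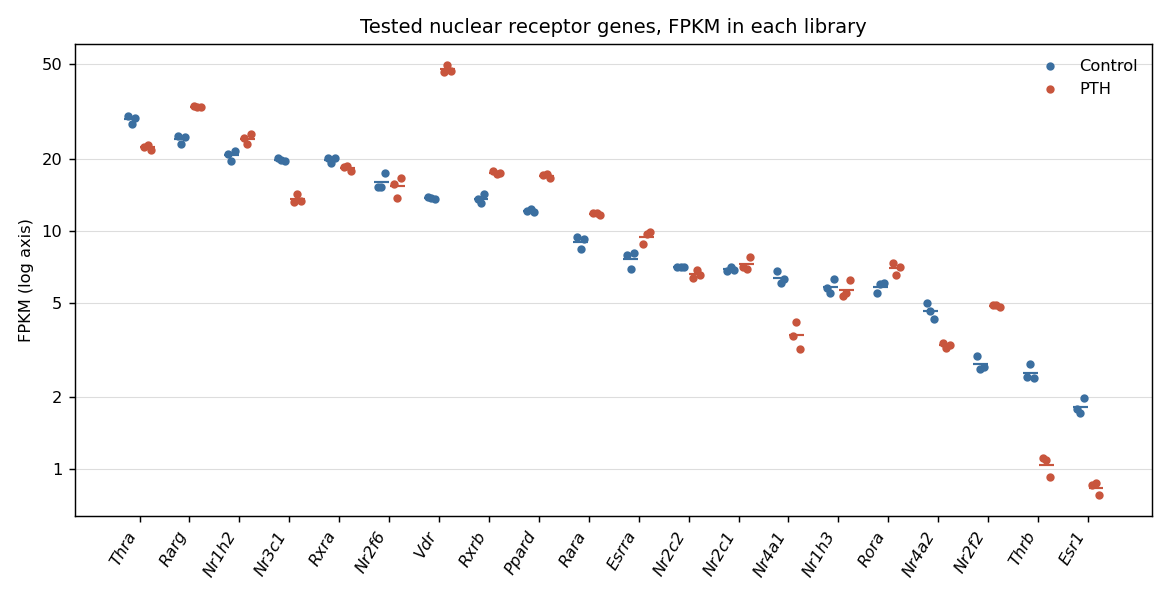
FPKM (log axis) of the 20 tested nuclear receptor genes in each of the 3 Control and 3 PTH libraries; each point is 1 library and each short line a group mean. The 3 PTH points of Vdr, at 46.6 to 49.5 FPKM, lie above every other point, while Esr1 with PTH lies below 1 FPKM.

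The upstream sequences of 4 genes are shown because NR4A genes are textbook targets of cAMP signalling while Vdr had the largest change. They are RefSeq sequences on GRCm38.p6, from 250 bases before to 50 bases after each gene's start, and 33 of the 36 members were matched to one. Capitals mark the short cAMP response element motif TGACG, read on either strand (CGTCA where it lies on the opposite strand). The windows are chr15:101266596-101266895 on the plus strand for Nr4a1, chr2:57123954-57124253 on the minus strand for Nr4a2, chr4:48045055-48045354 on the plus strand for Nr4a3 and chr15:97908247-97908546 on the minus strand for Vdr.
Nr4a1: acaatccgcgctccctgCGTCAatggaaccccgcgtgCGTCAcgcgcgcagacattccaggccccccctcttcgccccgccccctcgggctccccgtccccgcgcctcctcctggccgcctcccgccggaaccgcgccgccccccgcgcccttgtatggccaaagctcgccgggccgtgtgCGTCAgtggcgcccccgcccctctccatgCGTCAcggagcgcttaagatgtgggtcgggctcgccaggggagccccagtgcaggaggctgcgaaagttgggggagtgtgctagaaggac
Nr4a2: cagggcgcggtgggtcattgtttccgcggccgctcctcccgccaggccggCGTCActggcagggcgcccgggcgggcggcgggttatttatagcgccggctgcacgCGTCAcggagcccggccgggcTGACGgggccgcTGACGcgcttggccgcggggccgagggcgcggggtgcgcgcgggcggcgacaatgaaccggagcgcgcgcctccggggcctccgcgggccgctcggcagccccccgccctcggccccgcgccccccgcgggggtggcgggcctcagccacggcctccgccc
Nr4a3: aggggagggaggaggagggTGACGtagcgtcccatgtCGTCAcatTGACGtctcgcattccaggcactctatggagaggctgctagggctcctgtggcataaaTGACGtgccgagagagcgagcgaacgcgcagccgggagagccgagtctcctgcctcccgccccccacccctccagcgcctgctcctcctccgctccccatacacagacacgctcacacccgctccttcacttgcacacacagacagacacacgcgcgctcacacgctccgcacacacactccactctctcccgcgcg
Vdr: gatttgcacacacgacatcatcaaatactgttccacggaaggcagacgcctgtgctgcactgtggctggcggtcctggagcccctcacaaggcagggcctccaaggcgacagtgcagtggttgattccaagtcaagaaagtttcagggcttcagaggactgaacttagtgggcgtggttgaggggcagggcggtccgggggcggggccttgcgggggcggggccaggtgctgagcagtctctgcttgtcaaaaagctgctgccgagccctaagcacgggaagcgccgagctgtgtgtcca

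Each NR4A window holds 4 matches to this motif, and the Vdr window holds 0. Of 32851 RefSeq promoter windows of the same length 20.8% hold at least 1 match and 0.231% hold at least 4. Of the 33 members 14 hold at least 1 in any of their windows (52 windows in all). Since a member can have several windows, this count of genes is not comparable with the share of single windows. In Nr4a1 the leftmost bases of the matches lie at −233, −213, −69 and −40 from the gene's start, all on the opposite strand. In Nr4a2 they lie at −200 and −144 on the opposite strand and at −123 and −111 on the gene's own strand, and in Nr4a3 at −231, −205 and −147 on its own strand and −213 on the opposite one. The full palindrome TGACGTCA, which holds the motif on both strands and is held by 1.79% of all windows, is in none of the 4. A match describes letters only and marks neither a bound site nor a cause.

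Vdr, the receptor of calcitriol, was 13.8, 13.7 and 13.6 FPKM in the Control libraries and 46.6, 49.5 and 46.8 FPKM in the PTH libraries. The groups lie far apart, and the lowest PTH library is above 3 times the highest Control library. The mean was 13.7 ± 0.0995 in Control and 47.7 ± 1.64 with PTH (SD, n = 3), a ratio of 3.47 and a change of 1.72 ± 0.0331 on the log2 scale (SE; limma, adjusted p = 8.39e-08). Vdr was the 7th most abundant of the 36 receptors in Control and the 1st with PTH. Its share of the summed FPKM of the 36 genes was 5.90% ± 0.168 in Control and 17.4% ± 0.539 with PTH. That sum was itself 225.9 to 237.2 FPKM in Control and 272.7 to 274.7 FPKM with PTH. The gene lies at chr15:97684858-97738727 on mm9, and about 3926 Control and 17840 PTH fragments stand behind its values.

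Genes of vitamin D metabolism were mostly not expressed at a level that could be tested. Of 7 listed, Cyp2r1, a 25-hydroxylase, was the 1 tested, and it was not called (log2 change 0.00, adjusted p = 0.995). Cyp24a1, which degrades calcitriol and is the best known VDR target, was listed at 0 in 5 libraries and at 0.0134 FPKM, about 1 fragment, in Control replicate 3. Cyp27b1, the 1α-hydroxylase that makes calcitriol, was 0.0703 to 0.195 FPKM in Control and 0.0604 to 0.1 FPKM with PTH, below the filter. Of 18 genes known as VDR targets in bone, gut or kidney 11 were tested, of which 4 were higher, 5 lower and 2 not called, with a median of −0.02 beside 0.15 for all entries. Tnfsf11, the gene of the osteoclast factor RANKL, had the largest change, from a mean of 2.35 to 122 FPKM (log2 change 5.21, adjusted p = 1.29e-08). Phex, a phosphate-regulating endopeptidase, moved the other way, from 60.4 to 7.51 FPKM (−2.85, adjusted p = 3.38e-08), as did Bglap and Bglap2, the near-identical osteocalcin copies, whose reads cannot be divided with certainty. The list was taken from general knowledge of the pathway, and several of its genes are also bone markers.

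The retinoid X receptors are the partners of Vdr, the retinoic acid receptors, thyroid receptors, PPARs and LXRs. Rxra was 20.3, 19.2 and 20.2 FPKM in Control and 18.5, 18.8 and 17.8 FPKM with PTH. The groups did not overlap, yet the change was the smallest of all called members, −0.11 ± 0.0354 (−0.25 relative to the median of all entries, adjusted p = 0.0282). It lost its call without Control replicate 1 (adjusted p = 0.0816), Control replicate 3 (0.084), PTH replicate 1 (0.0656) or PTH replicate 3 (0.0918), with limma in each case. Rxrb was 13.6, 13.04 and 14.3 FPKM in Control and 17.8, 17.4 and 17.5 FPKM with PTH. It rose by 0.34 ± 0.0386 (adjusted p = 0.000233). The ratio of Rxrb to Rxra was 0.686 ± 0.0193 in Control and 0.956 ± 0.0287 with PTH, and the summed FPKM of the 3 RXR genes was 33.7 ± 1.15 and 36.01 ± 0.579. The ratio of Vdr to Rxra, both being per-length values, was 0.691 ± 0.0205 in Control and 2.59 ± 0.0633 with PTH. Rxrg, the third partner, was not tested: it stood at 0.112 to 0.214 FPKM in Control and 0.0343 to 0.0933 with PTH, on about 12.3 and 7.40 fragments.

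The retinoic acid receptors were higher with PTH where they were tested. Rarg was 25.1, 23.1 and 24.7 FPKM in Control and 33.6, 33.2 and 33.1 FPKM with PTH, with no overlap (log2 change 0.44 ± 0.0372, adjusted p = 6.02e-05). Rara was 9.39, 8.37 and 9.25 FPKM in Control and 11.9, 11.9 and 11.7 FPKM with PTH (0.36 ± 0.0462, adjusted p = 0.00043). Rarb was below the filter and not tested, with 0.138 to 0.177 FPKM in Control and 0.552 to 0.619 FPKM with PTH. Its groups do not overlap, on about 27 and 137 fragments. The summed FPKM of the 3 genes was 33.5 ± 1.62 in Control and 45.7 ± 0.332 with PTH.

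Genes that make, carry, break down or respond to retinoic acid were mostly higher where tested. Of 8 tested of 18 listed, 7 were higher and 1 lower, with a median of 0.76 beside 0.15 for all entries. Crabp2, the protein that carries retinoic acid to its receptor, went from a mean of 2.92 to 45.9 FPKM (log2 change 3.61, adjusted p = 4.38e-06), and Tgm2, a transglutaminase and a known retinoid target, from 6.16 to 40.7 FPKM (2.54, adjusted p = 1.22e-07). Rdh10, which oxidizes retinol, went from 6.32 to 31.7 FPKM (2.16, adjusted p = 2.48e-07). Cyp26b1, which breaks down retinoic acid, was higher too, from 4.43 to 9.16 FPKM (0.91, adjusted p = 1.61e-05), so the rises are not of synthesis alone. Dhrs3, which reduces retinal back to retinol, was the 1 gene called lower, from 13.7 to 4.38 FPKM (−1.45, adjusted p = 6.03e-06). Stra6, the retinol importer, had a 6-library mean below 1 FPKM and so was not tested, but stood at 0.0161 to 0.0307 FPKM in Control and 1.01 to 1.07 FPKM with PTH. Quantile normalization left 6 of the 7 called higher.

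**Figure D2:**
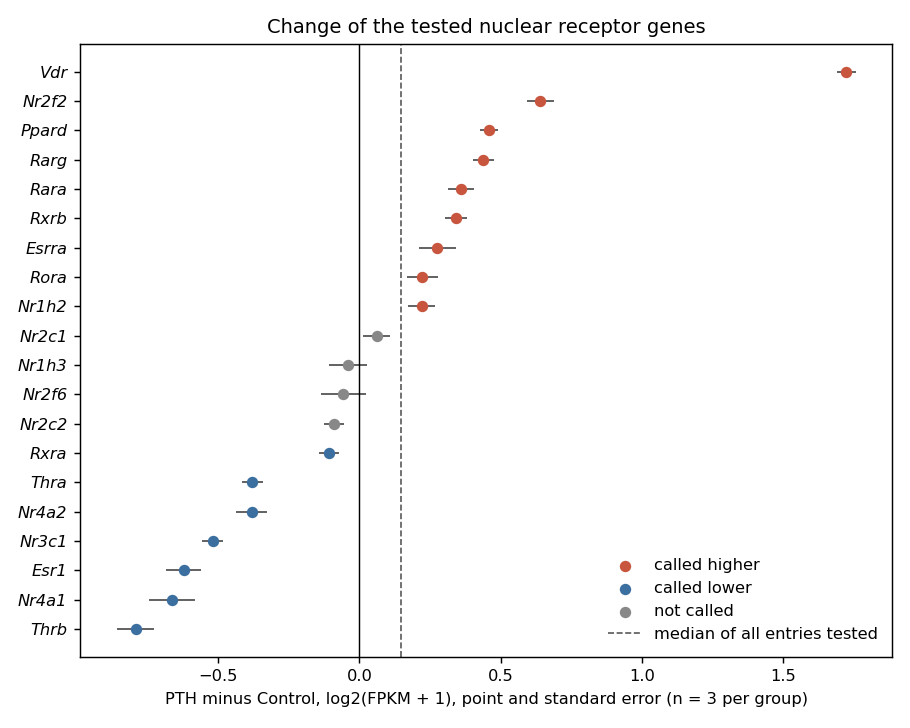
Change with PTH of the 20 tested nuclear receptor genes as the difference of mean log2(FPKM + 1), with limma's standard error as bars, colours for the call and a dashed line at the median of all tested entries. Vdr is farthest to the higher side at 1.72 and Thrb farthest to the lower side at −0.79.

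Both thyroid hormone receptors were lower with PTH. Thra, at chr11:98603187-98626425 on mm9, was 30.4, 28.2 and 29.9 FPKM in Control and 22.4, 23.0 and 21.9 FPKM with PTH, so that the groups lie well apart (−0.38 ± 0.0378, adjusted p = 0.000132). Thrb was 2.45, 2.75 and 2.40 FPKM in Control and 1.11, 1.09 and 0.926 FPKM with PTH. Among the 20 tested members it had the largest fall on the log2(FPKM + 1) scale, −0.79 ± 0.0662 (adjusted p = 5.59e-05), with Control 2.43 times PTH. The thyroid list was smaller, with 4 tested of 10 listed, of which 2 were higher and 2 lower. Dio3, the deiodinase that inactivates thyroid hormone, went from a mean of 8.05 to 23.1 FPKM (1.43, adjusted p = 9.59e-05). Hr and Klf9, which are known thyroid hormone targets in brain, were lower by little, −0.19 and −0.12.

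Among the steroid receptors the glucocorticoid receptor gene Nr3c1 was the most abundant, at 20.2, 19.9 and 19.8 FPKM in Control and 13.2, 14.3 and 13.4 FPKM with PTH. It fell by 0.52 ± 0.0366 on the log2 scale (adjusted p = 2.44e-05), with no overlap and on about 8407 and 7523 fragments. The ratio of Vdr to Nr3c1 was 0.689 ± 0.00247 in Control and 3.50 ± 0.0311 with PTH. Esr1, estrogen receptor α, was 1.78, 1.72 and 1.98 FPKM in Control and 0.857, 0.871 and 0.781 FPKM with PTH. It passed the filter on its Control libraries alone and fell by 0.62 ± 0.0618 (adjusted p = 0.000129). Esr2 was 0.0786 to 0.138 FPKM in Control and 0.00557 to 0.0444 with PTH, and the mineralocorticoid receptor gene Nr3c2 0.447 to 0.619 and 0.156 to 0.224. Both lay below the filter with groups that do not overlap, on about 19.4 and 5.18 fragments for Esr2 and 144 and 68 for Nr3c2. Pgr, the progesterone receptor gene, was 0.0200 to 0.0544 FPKM in all 6 libraries.

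Glucocorticoid-related genes were tested in number. Of 18 listed 15 were tested, with 12 higher and 3 lower and a median of 0.66 beside 0.15 for all entries, while Nr3c1 itself was lower. Sgk1, a kinase, went from a mean of 18.4 to 193 FPKM (3.32, adjusted p = 2.25e-08), Errfi1, a feedback inhibitor of EGF receptor signalling, from 7.03 to 68.2 FPKM (3.11, adjusted p = 1.94e-08) and Ddit4, an mTOR inhibitor, from 19.6 to 84.1 FPKM (2.05, adjusted p = 2.12e-07). Fkbp5, a chaperone partner and a textbook target, was lower, from 5.17 to 3.09 FPKM (−0.59, adjusted p = 0.000107), as was Tsc22d3, which encodes GILZ (−0.23, adjusted p = 0.00818). Some of these genes are known to respond to other signals as well, cAMP included. The estrogen-related list had 5 tested of 9 found, with 2 higher and 2 lower. Igfbp4, the largest, went from 704 to 1448 FPKM (1.04, adjusted p = 6.98e-06).

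Ppard, a fatty-acid receptor, was 12.1, 12.4 and 12.0 FPKM in Control and 17.2, 17.3 and 16.7 FPKM with PTH (0.46 ± 0.0307, adjusted p = 1.90e-05). Nr1h2, LXRβ, a receptor of oxysterols, was 21.0, 19.7 and 21.7 FPKM in Control and 24.6, 23.3 and 25.5 FPKM with PTH (0.22 ± 0.0481, or 0.07 relative to the median of all entries, adjusted p = 0.0054). The call of Nr1h2 was lost under median-of-ratios (adjusted p = 0.0698) and quantile scaling (0.2). Nr1h3, LXRα, was 5.50 to 6.27 FPKM in Control and 5.31 to 6.20 FPKM with PTH, and was not called (−0.04, adjusted p = 0.605). Ppara was 0.213 to 0.282 FPKM in Control and 0.167 to 0.227 FPKM with PTH, below the filter. Rora, a receptor of the circadian feedback loop, was 5.47, 5.98 and 6.06 FPKM in Control and 7.32, 6.51 and 7.09 FPKM with PTH (0.22 ± 0.0551, or 0.08 relative to the median of all entries, adjusted p = 0.00953), and lost its call under each of the 3 other scalings. The circadian repressors Nr1d1 and Nr1d2, which are outside the 36, stood at 14.7 and 15.1 FPKM in Control and 47.2 and 24.4 FPKM with PTH.

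PPAR targets were called in both directions and LXR targets were mostly lower. Of 15 tested PPAR targets of 17 listed, 6 were higher, 6 lower and 3 not called. Their median was 0.04 beside 0.15 for all entries. Under the 3 other scalings 5 or 6 were higher and 7 lower. Angptl4, an inhibitor of lipoprotein lipase, went from 5.82 to 45.5 FPKM (2.78, adjusted p = 8.42e-07), while Fabp3 and Fabp4, fatty-acid binding proteins, went from 65.1 to 4.66 FPKM (−3.56, adjusted p = 1.22e-06) and from 428 to 61.7 FPKM (−2.85, adjusted p = 0.000172). Of 10 tested LXR targets of 13, 2 were higher and 8 lower, with a median of −0.56 beside 0.15 for all entries. Mylip, the ligase that removes the LDL receptor, went from 23.8 to 6.42 FPKM (−1.74, adjusted p = 1.57e-07) and Abca1, the cholesterol exporter, from 6.10 to 10.7 FPKM (0.72, adjusted p = 4.95e-06). The fragments implied for Mylip were uneven, at 1157.7, 18.7 and 14.9 in Control and 16.6, 299.1 and 27.1 with PTH. Its level is therefore uncertain in most libraries. Beside both lists, all 10 tested of 11 listed adipocyte markers were lower with PTH. Their summed level was 572.3 to 810.2 FPKM in Control and 84.1 to 164.5 FPKM with PTH, with Adipoq at 57.5 to 84.5 and 16.2 to 31.5 FPKM. Adig and Cidec, 2 of these markers, had PTH means of 0.441 and 0.656 FPKM and passed the filter through their Control values. Lep, the leptin gene, was listed at 0 in 2 PTH libraries. Their part in the PPAR and LXR counts was not tested. Fabp4 is on the PPAR and adipocyte lists, and Pparg, from 11.6 to 2.48 FPKM, is an adipocyte marker that is itself a nuclear receptor outside the 36.

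**Figure D3:**
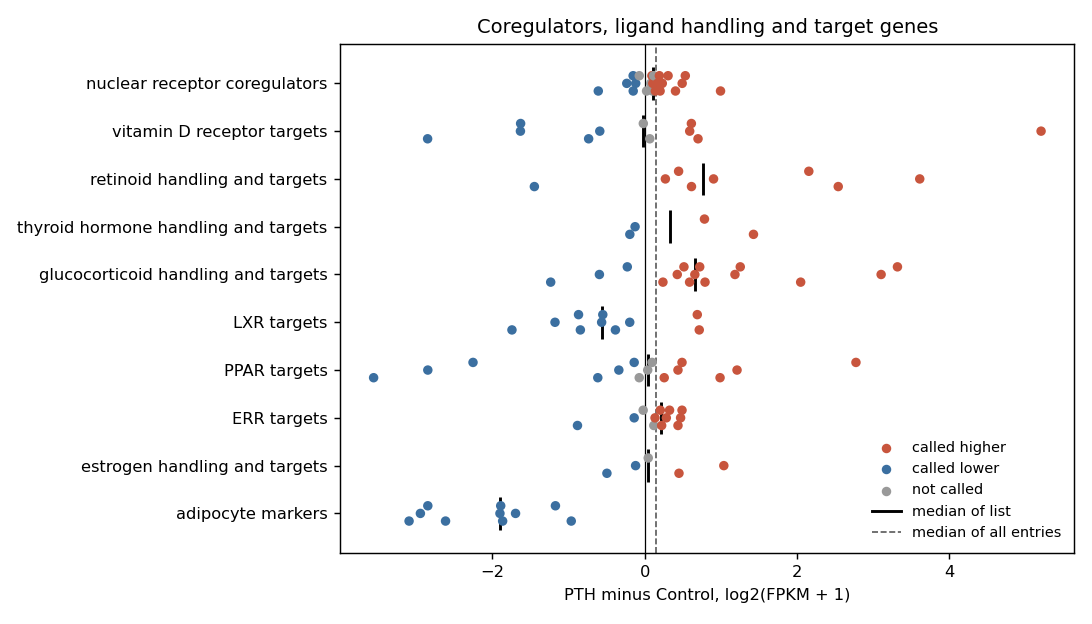
Change with PTH as the difference of mean log2(FPKM + 1) for each tested gene of the pathway lists and adipocyte markers, 1 row per list and 1 point per gene coloured by its call, with a black bar at the list's median and a dashed line at that of all tested entries. Retinoid and glucocorticoid genes lie mostly to the higher side, with medians of 0.76 and 0.66, and LXR targets mostly to the lower side, with a median of −0.56.

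Nr2f2, an orphan receptor also called COUP-TFII, was 2.98, 2.63 and 2.67 FPKM in Control and 4.89, 4.89 and 4.79 FPKM with PTH. The groups are well apart, and the change was 0.64 ± 0.048 (adjusted p = 3.28e-05), the second largest rise. Nr2f1 stayed at the limit of detection, with 0 to 0.0464 FPKM. Nr2f6 was 15.3, 15.3 and 17.4 FPKM in Control and 15.8, 13.8 and 16.6 FPKM with PTH, and was not called (adjusted p = 0.534). Nr2c1, at 6.77 to 7.07 and 6.93 to 7.80 FPKM, was not called either (adjusted p = 0.287). Nr2c2 was 7.04, 7.07 and 7.04 FPKM in Control and 6.34, 6.83 and 6.53 FPKM with PTH. Its groups did not overlap but it missed the threshold (−0.09 ± 0.0361, or −0.24 relative to the median of all entries, adjusted p = 0.0577), and it was called lower under each of the 3 other scalings. The Mrps25 locus overlaps it by 3536 bases on the opposite strand, which the unstranded kit cannot separate.

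Esrra, the estrogen-related receptor α of mitochondrial gene regulation, was 7.96, 6.93 and 8.06 FPKM in Control and 8.84, 9.67 and 9.86 FPKM with PTH (0.28 ± 0.0653, or 0.13 relative to the median of all entries, adjusted p = 0.00786). Esrrb and Esrrg were at 0 in most libraries and at no more than 0.0168 FPKM in any. Of 12 tested ERR targets of 14, 8 were higher and 2 lower, beside 50.3% and 23.5% of all tested entries called higher and lower. Their median was 0.22 beside 0.15 for all entries. Under the 3 other scalings 5 to 7 were higher and 3 lower. No result particular to ERR targets is read from these counts. Cox6a2, 1 of the 2 lower, had a PTH mean of 0.41 FPKM and passed the filter through its Control libraries. Cycs, cytochrome c, went from 26.0 to 35.6 FPKM (0.44, adjusted p = 0.000115).

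Nr4a1 and Nr4a2, the NR4A receptors that could be tested, were lower with PTH at 24 h. Nr4a1, at chr15:101097277-101105225 on mm9, was 6.76, 6.03 and 6.28 FPKM in Control and 3.62, 4.16 and 3.19 FPKM with PTH. The groups did not overlap, and it fell by 0.66 ± 0.0816 (adjusted p = 0.000354). Nr4a2 was 4.97, 4.604 and 4.28 FPKM in Control and 3.39, 3.21 and 3.32 FPKM with PTH, and fell by 0.38 ± 0.0543 (adjusted p = 0.00072). Both were called lower in every alternative that tested them. Nr4a3 was not tested, at 0.0246 to 0.0927 FPKM in Control and 0.0617 to 0.199 FPKM with PTH, with overlapping groups on about 6 and 17 fragments. The summed FPKM of the 3 was 11.0 ± 0.648 in Control and 7.08 ± 0.489 with PTH, and the ratio of Nr4a1 to Nr4a2 was 1.38 ± 0.0799 and 1.11 ± 0.171, a difference that was not tested. With 24 h as the only time, an earlier course was not measured.

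The 16 members below the filter had a mean under 1 FPKM and were not tested. Rarb, Rxrg, Esr2 and Nr3c2 were the 4 whose groups did not overlap, Rarb higher and the others lower. Nr6a1 was nearest to the filter, at 0.882 to 0.943 FPKM in Control and 0.893 to 1.06 FPKM with PTH (mean over 6 libraries 0.953), while Esr1 was the lowest member above it (1.33). Nr5a2 was 0.106 to 0.277 and 0.0202 to 0.127 FPKM, and Nr5a1, Rorb, Hnf4a and Nr2e3 were at no more than 0.0422 FPKM in any library. In 6 of the members at least 1 library was listed at 0.

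**Figure D4:**
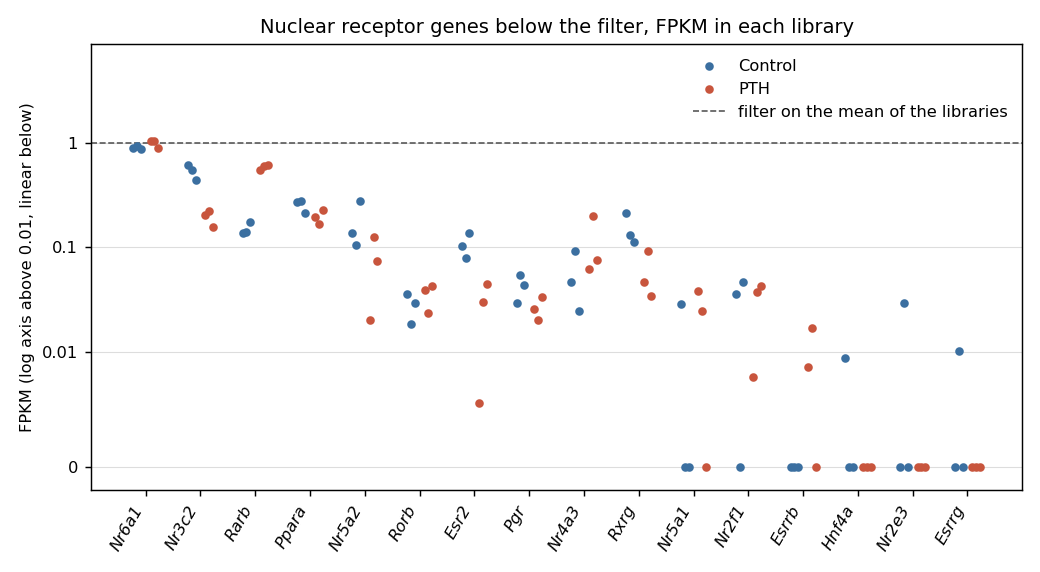
FPKM of the 16 nuclear receptor genes below the filter in each of the 3 Control and 3 PTH libraries; each point is 1 library, the axis is linear near 0 and logarithmic above it, and the dashed line marks a mean of 1 FPKM. Rarb is 0.138 to 0.177 FPKM in Control and 0.552 to 0.619 FPKM with PTH.

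Coregulators are the proteins that receptors recruit to DNA. Of 22 tested coregulators of 25 listed, 12 were higher, 5 lower and 5 not called, beside 50.3% and 23.5% of all tested entries called higher and lower. Their median was 0.11 beside 0.15 for all entries. Under the 3 other scalings 6 or 7 were higher and 6 or 7 lower. Prmt1, an arginine methyltransferase and coactivator, went from a mean of 56.2 to 113 FPKM (1.00, adjusted p = 2.12e-05). Ncoa3, a p160 coactivator, went from 5.14 to 7.64 FPKM (0.49, adjusted p = 4.15e-05), and Kat2b, an acetyltransferase, from 8.72 to 5.38 FPKM (−0.61, adjusted p = 1.61e-05).

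The spread between libraries lay above the counting error for some members and below it for others. Over the 20 tested members the coefficient of variation was 0.265% to 8.16% in Control and 0.732% to 13.2% with PTH, beside a counting error of 1.89% to 7.60% and 1.30% to 9.84% from the implied fragments. Nr4a1 with PTH varied by 13.2% beside a counting error of 6.33%, Nr2f6 with PTH by 9.60% beside 3.27%, and Nr2c2 in Control by 0.265% beside 2.89%. Markers of other cell types moved in the same libraries: 4 of 5 tested chondrocyte markers were lower, with a sum of 184.7 to 204.5 FPKM in Control and 54.9 to 68.5 with PTH, while no endothelial marker was tested and their sum was at most 0.196 FPKM. Of the macrophage and blood markers 2 of 3 tested were higher and 1 lower, with Emr1 listed at 0 in every library. Their part in the receptors' changes was not tested.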

How the data were processed

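Groups and replicate numbers came from the sample labels, which do not say that the wells were separate cultures, so p-values reflect only how far these wells differ, possibly for technical reasons. Libraries of polyadenylated RNA were unstranded, and all 6 barcoded libraries shared 1 lane. The authors deposited FPKM per gene and library with lower and upper bounds; the submitters' processing notes name mm9, CASAVA 1.8, TopHat, Bowtie2, SAMtools and Cuffdiff, and no version of the last 4 is given in the sources used here. A deposited Cuffdiff table of FPKM per group, log2 fold change, p-value and q-value was not used.

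Values were tested as log2(FPKM + 1) with limma 3.58.1 in R 4.3.3 (trended variance), over 11900 of 23700 entries with a mean of at least 1 FPKM; 11798 fell below it and 2, the type I collagen genes, have no Control estimate. Fold changes on this scale understate those of low genes. Fragments implied by a value are (2 × FPKM / half-width of the bound) squared and hold no spread between libraries. For some genes, such as Mylip and Kat2b, they differed widely between libraries of like FPKM, so they are not plain counts. The counting errors given come from these fragments and carry the same limit. All 36 members are named, and of each list up to 4 called genes with the largest changes whose groups do not overlap. Of the genes so chosen 2 are not reported here. Others named were chosen after their values were seen. Members and lists were chosen with earlier results of these data known.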

Additional observations from a re-analysis of the deposited data

How the results depend on the processing

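The alternatives were a pseudocount of 0.1, no filter, a mean of at least 5 FPKM, median-of-ratios, TPM and quantile scaling, no variance trend, the replicate block, and each library left out in turn. Raising the minimum to 5 FPKM lowered the receptors called lower from 7 to 4, because fewer genes were tested. Nr2c1, not called, changed sign to −0.0008996 under TPM, −0.0545 under median-of-ratios and −0.0411 under quantile scaling. Sparc, lower by 0.57 in the main comparison, was 0.25 higher under quantile scaling; the cause was not tested. Without the filter Bglap, Bglap2 and Sparc were not called. Uncalled Nr1h3 and Nr2f6 also changed sign when 1 library was left out, over ranges of −0.10 to 0.0047 and −0.11 to 0.01648. Nr2c2 was called lower under the 3 other scalings, with adjusted p = 0.0227, 0.00315 and 0.00393 under TPM, median-of-ratios and quantile scaling, and Nr2f6 under quantile scaling (0.0347). Libraries of the same replicate number had correlations of −0.0789, 0.00157 and −0.0377 between deviations, and pairs of unlike number −0.0862 to 0.117. With 3 libraries per group these values cannot settle whether the wells were paired. The replicate block called 5869 entries higher and 2731 lower, and Rxra was not called (limma, adjusted p = 0.0632). The calls and directions of 13 members stayed the same in every alternative that tested them. A single time, 1 line and genes below 1 FPKM limit what can be read.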
